A study of Mus musculus with 8 samples.

Results

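Mir34a and Mir192 are the mouse genes of the microRNAs (miRNAs) miR-34a and miR-192, both known as targets of the tumour suppressor p53. Their counts were taken from the rows of both deposited tables whose chromosome, start and end match the RefSeq genes exactly. These are 2 of 2202 features, and both had enough counts to be tested, as had 219 features in all. Small RNA was sequenced from splenic B cells of Ago2HA/HA mice, in which the Argonaute protein AGO2 carries an HA epitope in every group. B cells were obtained by removing cells that bear CD43, and were used resting or after activation in culture, called proliferating. RNA came either from an anti-HA immunoprecipitate of AGO2 (IP) or from the input. The 4 groups are proliferating IP, proliferating input, resting IP and resting input, with 2 libraries each, numbered here by the replicate number of their titles. The labels give no agent or duration of activation and no age of the animals. Nor do they tie replicates to separate animals, so the p-values speak only for the spread among these libraries, which may be technical. Per the labels, the IP of cells lacking the epitope recovered no RNA, and no library was made from it, so each IP is set against its input. Only miRNA genes were counted, so neither p53 nor any target transcript was measured here.

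A miRNA is cut from a hairpin precursor, and 1 arm or the other is loaded into an Argonaute protein, where its seed (bases 2 to 8) selects the transcripts to be repressed. p53 is known to bind and activate Mir34a after DNA damage, and miR-34a in turn represses cell cycle and survival genes such as Cdk6, Ccnd1 and Bcl2. In early B cells miR-34a is known to repress the transcription factor Foxp1. The gene of miR-192 is known as a p53 target from human cells, and miR-192 is best known as an abundant miRNA of gut, liver and kidney.

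Mir34a (feature ENSMUSG00000065493.1) lies on the plus strand of chromosome 4, from 150068454 to 150068555 in mm10. No other RefSeq gene spans it. The nearest genes are the long noncoding Gm13067, 9737 bp away on the side of lower coordinates, and Gpr157, 18948 bp away on the other side. Mir192 (ENSMUSG00000065523.1) lies on the plus strand of chromosome 19, from 6264844 to 6264932, also outside any other RefSeq gene. Mir194-2 precedes it at a distance of 116 bp, and the nearest protein-coding gene, Atg2a, ends 2540 bp before it. Neither feature overlaps another counted feature.

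The tables count reads per hairpin, so both arms enter 1 value. The hairpins are shown because they are the counted units, 5′ to 3′ from RefSeq (GRCm38.p6, the assembly of mm10), with the mature arms in capitals.
Mir34a hairpin: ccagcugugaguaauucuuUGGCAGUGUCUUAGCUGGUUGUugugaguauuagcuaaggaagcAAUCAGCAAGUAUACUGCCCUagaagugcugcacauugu
Mir192 hairpin: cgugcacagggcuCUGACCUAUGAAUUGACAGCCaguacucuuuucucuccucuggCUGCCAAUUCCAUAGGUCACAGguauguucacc
The Mir34a hairpin is 102 nt long and the Mir192 hairpin 89 nt.

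The mature miRNAs of both genes and of the genes that share their seeds are shown next, from the same source, with the seed in capitals, because reads of close relatives could be taken for those of the members.
miR-34a-5p: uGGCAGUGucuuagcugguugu
miR-34b-5p: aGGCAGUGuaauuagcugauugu
miR-449a-5p: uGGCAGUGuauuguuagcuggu
miR-449c-5p: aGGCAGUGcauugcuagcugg
miR-34a-3p: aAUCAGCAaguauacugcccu
miR-192-5p: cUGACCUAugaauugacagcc
miR-215-5p: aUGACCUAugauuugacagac
miR-192-3p: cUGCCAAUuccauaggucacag
Of these sequences, those of Mir34a, Mir34b, Mir449a and Mir449c hold the seed GGCAGUG, and those of Mir192 and Mir215 hold UGACCUA. Mir34c and Mir449b, counted as relatives of Mir34a too, are named only. The sequences used hold no arm of theirs with this seed, so such arms were not among those compared. Without gaps, miR-34a-5p differs at 7 of 22 bases from miR-449a-5p, the closest of the 1685 mature miRNAs with which it was compared. For miR-192-5p the closest is miR-215-5p, which differs at 3 of 21 bases. No mature sequence of either member was found under another gene among those compared.

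Reads of the seed relatives were few. Mir34a held 13420 of the 13437 counts of its seed family over all libraries, and between 97.9% and 100% in single libraries. Mir34b had 7 counts in proliferating input replicate 1 and 1 count in resting IP replicate 2, and none elsewhere. Mir449a had 9 counts in all. No count fell on Mir34c, Mir449b or Mir449c in any library, and 3 counts, the limit that a count of 0 allows, come, on the counts-per-million (CPM) scale, to between 1.78 and 14.1 of a library's total. Mir192 held 9562 of the 9601 counts of its family, and Mir215 the other 39, of which 29 were in the resting IPs. These limits cover counting error only.

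Library totals ranged from 213418 to 1681148 counts, and replicates correlated across features with r from 0.960 to 0.981 in log2 CPM. Of the 6 markers chosen to check for lymphocytes, which do not separate B from T cells (Mir150, Mir142, Mir155, Mir181a-1, Mir181b-1 and Mir342), all but Mir142 had counts. Mir142 overlaps the feature of Mir142b, so its level is unknown. The summed level of the list was 225671 to 230975 CPM in the proliferating IPs, 180131 to 181305 in the proliferating inputs, 281574 to 285777 in the resting IPs and 349018 to 384113 in the resting inputs. The sum hides opposite changes. Mir150 averaged 25596 CPM in the proliferating and 297636 CPM in the resting inputs, and Mir155 115258 and 11182 CPM, with the same directions in the IPs. Each cell state has a table of its own, so state and table cannot be told apart.

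The first question is whether the level of each gene differs with the state of the cells. With TMM scaling, Mir34a was 9.02 times as high in proliferating as in resting B cells in the input and 9.17 times in the IP. Mir192 moved the other way, to 0.388 of its resting level in the input and 0.341 in the IP. Apart from the limits given above for features without counts, all CPM, those above included, are scaled with TMM factors, which correct for library composition. They are given per hairpin and are compared between libraries of the same gene.

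Mir34a had 2250 and 1467 counts in the proliferating inputs (replicates 1 and 2), against 236 and 250 in the resting inputs. On the CPM scale these levels were 6350 and 5145 CPM in the proliferating inputs and 661 and 614 CPM in the resting inputs. Both proliferating libraries lay far above both resting ones. The groups averaged 5747 ± 852 CPM in the proliferating input and 637 ± 33.0 CPM in the resting input (SD, n = 2 each). The difference was 3.17 on the log2 scale (SE 0.31, edgeR quasi-likelihood adjusted p = 5.87e-11), or 9.02-fold with a 95% interval of 5.85 to 13.9.

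In the IP Mir34a had 2363 and 5901 counts in proliferating cells, against 595 and 358 in resting cells. Its level was 3456 and 5003 CPM in the proliferating IPs and 444 and 479 CPM in the resting IPs, so these groups did not overlap either. The means were 4230 ± 1094 CPM in the proliferating IP and 462 ± 24.8 CPM in the resting IP (SD, n = 2 each). Mir34a rose by 3.20 on the log2 scale (SE 0.31, edgeR adjusted p = 2.06e-11), or 9.17-fold with a 95% interval of 5.95 to 14.1. With upper-quartile factors, which shifted the median of all features by -0.67 in this comparison, it was 2.51 on the log2 scale, below that interval. Its proliferating IP libraries differed by 1.45-fold from each other and its resting IP libraries by 1.08-fold, both small beside the difference between states.

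Mir192 had 296 and 158 counts in the proliferating inputs, against 665 and 703 in the resting inputs. Its level was 835 and 554 CPM in the proliferating inputs and 1861 and 1726 CPM in the resting inputs. The proliferating inputs were the libraries of this gene with the widest spread, at 1.51-fold, and still lay wholly below the resting ones. The means were 695 ± 199 CPM in the proliferating input and 1794 ± 95.5 CPM in the resting input (SD, n = 2 each). Mir192 fell by 1.37 on the log2 scale (SE 0.31, edgeR adjusted p = 3.25e-04), to 0.388 of the resting level with a 95% interval of 0.252 to 0.596.

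In the IP Mir192 had 613 and 1200 counts in proliferating cells, against 3902 and 2025 in resting cells. Its level was 897 and 1017 CPM in the proliferating IPs and 2912 and 2710 CPM in the resting IPs, again without overlap. The means were 957 ± 85.5 CPM in the proliferating IP and 2811 ± 143 CPM in the resting IP (SD, n = 2 each). The fall was -1.55 on the log2 scale (SE 0.30, edgeR adjusted p = 3.07e-05), to 0.341 of the resting level with a 95% interval of 0.223 to 0.521. With upper-quartile factors the log2 value was -2.22, again past the interval. In bulk RNA of this kind, fewer cells of a type and less RNA per cell cannot be told apart.

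**Figure D1:**
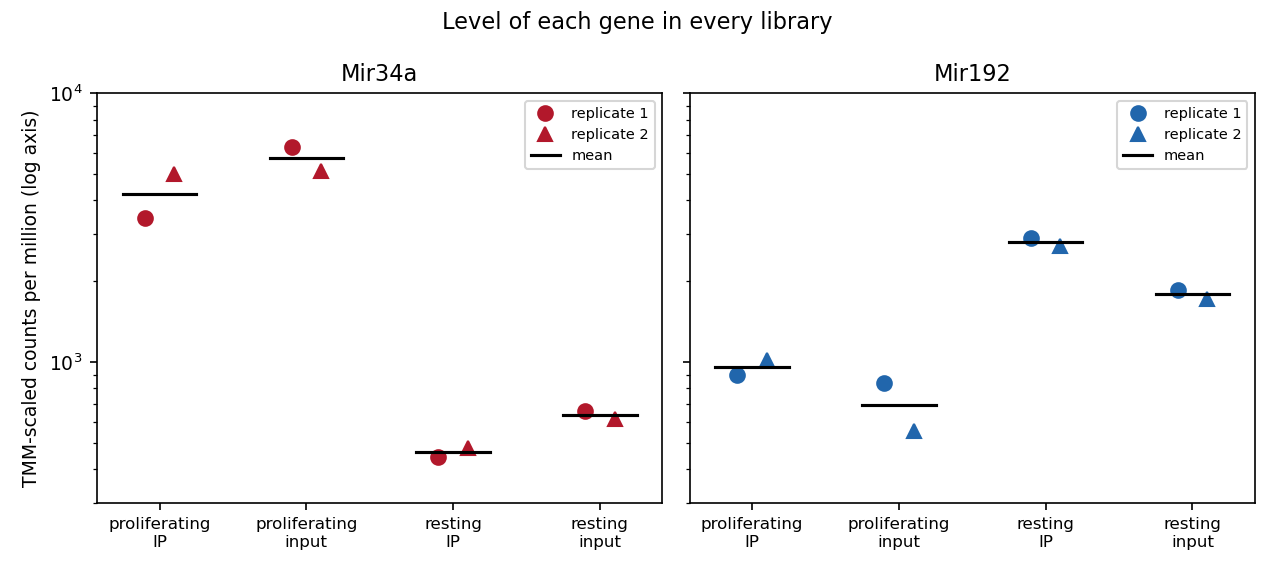
Level of Mir34a (left) and Mir192 (right) in TMM-scaled CPM on a log axis, by group; points are single libraries, circles replicate 1 and triangles replicate 2, and black lines are means of 2 libraries. Mir34a sits at 3456 CPM or more in all 4 proliferating libraries and at 661 CPM or less in all 4 resting ones, whereas Mir192 sits at 1017 CPM or less in the proliferating and at 1726 CPM or more in the resting libraries.

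Differences between states were common in these data, which sets the scale for the members. In the input 49.3% of the 219 tested features were called, 26% higher in proliferating cells and 23.3% lower. In the IP 52.1% were called, 28.3% higher and 23.7% lower. The libraries of the 2 states did not overlap for 78.5% of features in the input, with 43.4% higher in proliferating cells and 35.2% lower. In the IP they did not overlap for 74.9%, with 42% higher and 32.9% lower. A call or a lack of overlap alone therefore sets neither gene apart. The balance of calls depended on scaling. It was 57 higher and 51 lower in the input with TMM, 75 and 37 with library totals, and 39 and 59 with upper-quartile factors. In the IP the split was 62 higher and 52 lower with TMM and 38 and 75 with upper-quartile factors. Mir34a had the 18th highest of 219 log2 fold changes in the input and the 11th highest in the IP. Mir192 had the 47th lowest in the input and the 49th lowest in the IP. Both kept their direction and their call in all 56 combinations of result and alternative setting tried for these 2 comparisons.

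**Figure D2:**
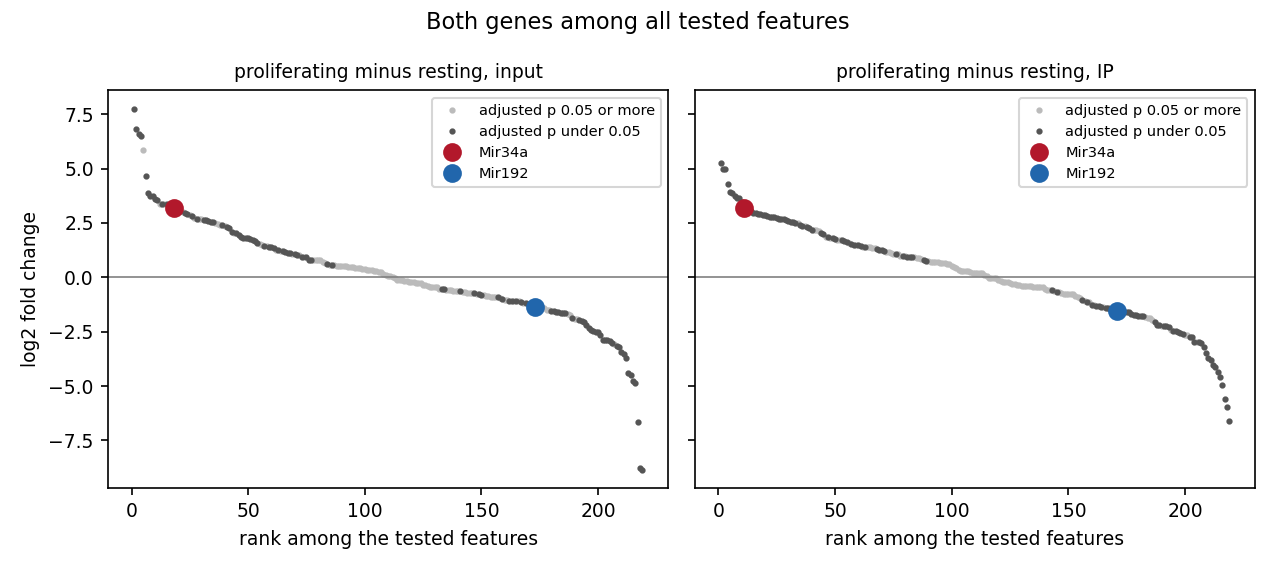
Log2 fold change of proliferating over resting cells for all 219 tested features, in rank order from the highest, in the input (left) and the IP (right); dark points have an edgeR adjusted p under 0.05 and light points do not. Mir34a (red, 3.17 in the input and 3.20 in the IP) lies near the top of both curves, and Mir192 (blue, -1.37 and -1.55) lies below 0 among many features with a similar change.

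The order of the 4 groups differed between the genes. For Mir34a the mean level was highest in the proliferating input, followed by the proliferating IP, the resting input and the resting IP. The neighbours within a state in this order did not pass the test, while the step between the states was wider than the spread of any group. For Mir192 the order was resting IP, resting input, proliferating IP and proliferating input, and the neighbours within a state again did not pass. Ranked within each library by counts per base of feature, Mir34a stood between place 19 and place 28 in the proliferating libraries and between 60 and 71 in the resting ones. Mir192 stood between place 53 and place 65 in the proliferating libraries and between 31 and 36 in the resting ones.

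The ratio of the members within a library does not depend on scaling between libraries. Per base of feature, Mir34a over Mir192 was 3.36 and 4.29 in the proliferating IPs and 6.63 and 8.10 in the proliferating inputs. In resting cells the ratio was 0.133 and 0.154 in the IPs and 0.310 and 0.310 in the inputs. The ratio lay above 1 in all 4 proliferating libraries and below 1 in all 4 resting ones. Different miRNAs may be captured with different efficiency and their reads cover only the arms, so its change between libraries, not its absolute value, compares the samples. Within a state the ratio was lower in the IPs than in the inputs in every library. It spanned 2.41-fold over the 4 proliferating libraries and 2.33-fold over the 4 resting ones, against 60.9-fold over all 8.

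**Figure D3:**
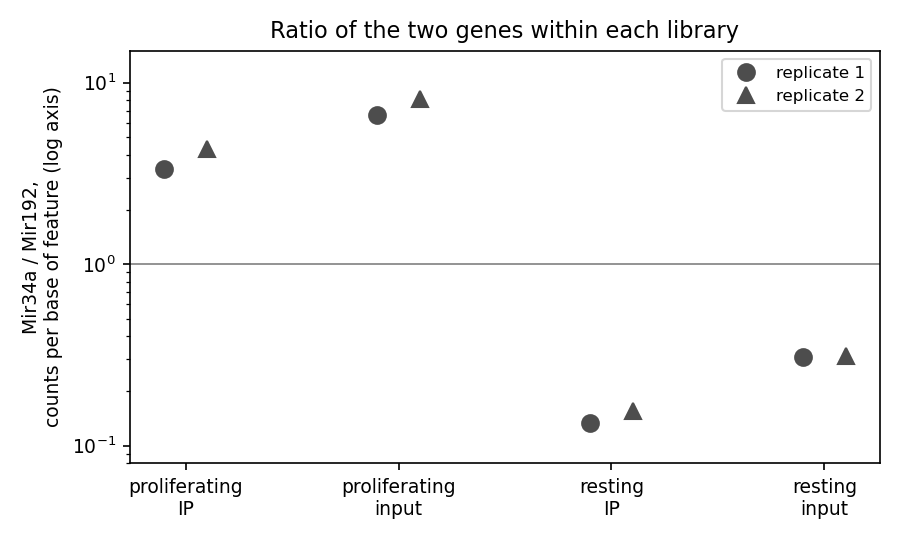
Ratio of Mir34a to Mir192 in counts per base of feature, on a log axis, in every library by group, with circles for replicate 1 and triangles for replicate 2; the grey line marks equal levels. The 4 proliferating libraries lie between 3.36 and 8.10 and the 4 resting ones between 0.133 and 0.310, and in both states the IPs lie below the inputs.

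The second question is whether the share of each miRNA bound by AGO2 departs from its share of the input. Neither gene passed the test in either state. In proliferating cells Mir34a had means of 4230 ± 1094 CPM in the IP and 5747 ± 852 CPM in the input (SD, n = 2 each). The log2 fold change was -0.44 (95% interval -1.01 to 0.13, edgeR adjusted p = 0.270). In resting cells its means were 462 ± 24.8 CPM in the IP and 637 ± 33.0 CPM in the input, with a log2 fold change of -0.47 (95% interval -1.05 to 0.12, edgeR adjusted p = 0.229). Both intervals include 0.

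Mir192 had means of 957 ± 85.5 CPM in the proliferating IP and 695 ± 199 CPM in the proliferating input, with a log2 fold change of 0.46 (95% interval -0.15 to 1.07, edgeR adjusted p = 0.286). In resting cells its means were 2811 ± 143 CPM in the IP and 1794 ± 95.5 CPM in the input. The log2 fold change there was 0.65 (95% interval 0.05 to 1.25, edgeR adjusted p = 0.0955), and the unadjusted p was 0.0358. In both states the IP and input libraries did not overlap, with Mir34a lower and Mir192 higher in the IP. The background is large: in proliferating cells IP and input did not overlap for 61.2% of features, 30.6% higher in the IP and 30.6% lower, and in resting cells for 68%, 33.3% higher and 34.7% lower. Of all tested features, 26.9% were called between IP and input in proliferating cells, 29 higher and 30 lower with TMM and 16 and 60 with library totals. In resting cells 28.8% were called, 29 higher and 34 lower with TMM and 33 and 23 with upper-quartile factors.

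Whether a member passed in resting cells, and how many features were called in proliferating cells, depended on single libraries. All libraries share 1 fit, and leaving out single proliferating libraries also changed the outcome in resting cells. In each fit without 1 library the filter was run anew, so 225 to 253 features were tested there in place of 219. In resting cells Mir192 passed without proliferating IP replicate 2 (log2 fold change 0.75, edgeR adjusted p = 0.0234), without proliferating input replicate 1 (0.87, adjusted p = 0.0261) and without proliferating input replicate 2 (0.88, adjusted p = 0.0246). Mir34a passed in resting cells without proliferating IP replicate 1 (-0.62, adjusted p = 0.0463) and without resting IP replicate 2 (-0.76, adjusted p = 0.0426). In proliferating cells the sign of Mir192 turned without proliferating input replicate 2 (-0.15, adjusted p = 0.801). With library totals in place of TMM, Mir34a passed in proliferating cells (-1.05, adjusted p = 0.00831) and Mir192 turned to -0.14 (adjusted p = 0.695). The count of features called in proliferating cells, 59 of 219, was 37 without proliferating IP replicate 2, 33 without proliferating input replicate 1 and 30 without proliferating input replicate 2.

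The difference in IP enrichment between the states was tested as an interaction. For Mir34a it was 0.02 on the log2 scale (95% interval -0.79 to 0.83, edgeR adjusted p = 0.981), and for Mir192 -0.19 (95% interval -1.04 to 0.67, edgeR adjusted p = 0.815). Both estimates were small beside the differences between states, though the intervals are wide. In this comparison 17.4% of features were called, 9.59% higher and 7.76% lower. These were 21 and 17 features with TMM, 7 and 15 with upper-quartile factors and 7 and 20 with library totals. The sign of Mir34a turned under 4 alternative settings and when any of 5 libraries was left out, and that of Mir192 without proliferating IP replicate 1 (0.13) or resting IP replicate 2 (0.057). The count of 38 features called was 11 without proliferating input replicate 1, 13 without proliferating input replicate 2 and 25 without resting input replicate 1.

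**Figure D4:**
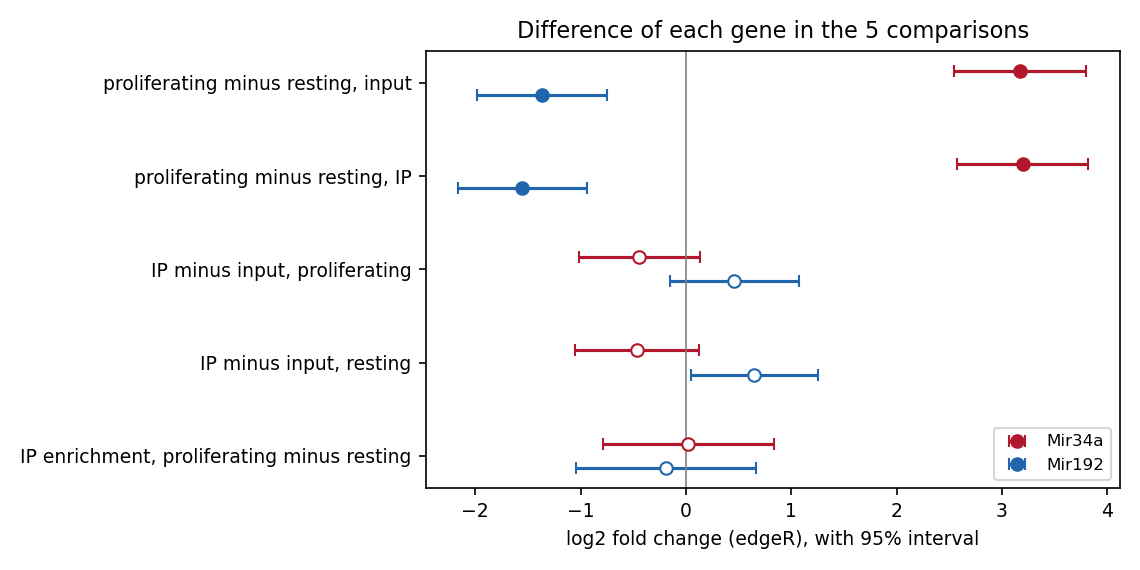
Log2 fold change of Mir34a (red) and Mir192 (blue) in the 5 comparisons, with 95% intervals; filled points have an edgeR adjusted p under 0.05 and open points do not. Both differences between states are filled for both genes and lie on opposite sides of 0, while the IP against input values lie between -0.47 and 0.65 and are open.

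Mir194-2 is the neighbour of Mir192, and miR-194 is known to be made from the same primary transcript as miR-192. It had 14 and 33 counts in the proliferating IPs, 5 and 6 in the proliferating inputs, 83 and 35 in the resting IPs, and 15 and 23 in the resting inputs. As a share of the counts of the Mir192 and Mir194-2 pair it made up between 1.66% (95% exact interval 0.542 to 3.83, proliferating input replicate 1) and 3.66% (1.35 to 7.79, proliferating input replicate 2), so that the extremes came from libraries of 1 group. The mature miR-194-5p is identical in Mir194-1, which had 3 counts in all, so reads of this arm cannot be assigned to 1 gene with certainty.

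Other miRNAs linked to p53 were read from 3 lists. The list of p53 transcription targets has 9 genes, of which 8 had a count and 4 were tested. In the input 1 was called higher in proliferating cells, Mir34a, 2 were called lower, Mir192 and Mir107, and Mir194-2 did not pass. In the IP 1 was higher, 1 was lower and 2 did not pass. Of all tested features 49.3% were called in the input and 52.1% in the IP, so these counts do not set the list apart. The median log2 fold change of the 4 was -1.26 in the input, against 0.04 over all tested features, and -1.002 in the IP, against 0.21. These medians do not describe a shared change, since Mir34a rose. Mir192 and Mir194-2 come from 1 locus, and the IP median lies between Mir194-2 and Mir107, which did not pass there. Mir194-2 was at -1.49 in the input (SE 0.82, edgeR adjusted p = 0.117) and at -1.15 in the IP (SE 0.70, edgeR adjusted p = 0.158). The untested genes were Mir34b, Mir34c, Mir194-1, Mir215 and Mir145a, the last with 2 counts in all.

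Mir107, which lies in the pantothenate kinase gene Pank1 in mammals, had 58 and 130 counts in the proliferating IPs, 38 and 17 in the proliferating inputs, 240 and 130 in the resting IPs, and 56 and 89 in the resting inputs. It was lower in proliferating cells by -1.16 in the input (SE 0.49, edgeR adjusted p = 0.0466) and at -0.85 in the IP (SE 0.46, edgeR adjusted p = 0.111). The call in the input was lost without proliferating input replicate 2 (-0.68, adjusted p = 0.294), without resting input replicate 1 (-1.33, adjusted p = 0.0802) or without resting input replicate 2 (-1.01, adjusted p = 0.214). It was also lost with library totals (-0.82, adjusted p = 0.132) and with no filter (-1.16, adjusted p = 0.0907). In the IP Mir107 passed without proliferating input replicate 1 (-1.17, adjusted p = 0.0219), without proliferating input replicate 2 (-1.29, adjusted p = 0.0139) or without resting input replicate 1 (-1.30, adjusted p = 0.0203), and Mir194-2 passed without either proliferating input (-1.46 and -1.58, adjusted p = 0.0491 and 0.0367). With upper-quartile factors both passed in the IP, Mir107 at -1.53 (adjusted p = 0.00798) and Mir194-2 at -1.83 (adjusted p = 0.0280). Mir107 shares its seed with the miR-103 genes, and its reads may be shared with them.

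Of the 3 miRNAs whose processing p53 is known to promote in human cells, Mir16-1 was tested. It is known to repress Bcl2 and cyclins, and its mature form is also made by a second gene. Its level was 486 ± 105 CPM in the proliferating IP and 601 ± 16.4 CPM in the proliferating input, against 1670 ± 71.2 CPM in the resting IP and 1746 ± 6.94 CPM in the resting input (SD, n = 2 each). Mir16-1 fell by 1.54 in the input (edgeR adjusted p = 9.65e-05) and by 1.78 in the IP (edgeR adjusted p = 5.88e-06), both on the log2 scale. Mir143 and Mir145a had 20 and 2 counts in all and were not tested.

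The list of miRNAs known to repress the p53 transcript in other systems has 6 genes, and Mir25, Mir30d and Mir33 were tested. Mir30d was called lower in proliferating cells, by -1.64 in the input (edgeR adjusted p = 3.52e-06) and -2.26 in the IP (edgeR adjusted p = 5.34e-09). Mir25, of the Mcm7 cluster, was at 0.44 in the input (edgeR adjusted p = 0.0975) and 0.77 in the IP (edgeR adjusted p = 0.00395). The call of Mir25 in the IP was lost without proliferating IP replicate 2 (0.35, adjusted p = 0.182), either proliferating input (0.46 and 0.33, adjusted p = 0.106 and 0.200) or either resting input (0.32 and 0.49, adjusted p = 0.271 and 0.0872). It was also lost with upper-quartile factors (0.09, adjusted p = 0.738) and in the fit of 2 groups (0.77, adjusted p = 0.0561). In the input Mir25 passed with library totals (0.80, adjusted p = 0.00356), in the fit of 2 groups (0.42, adjusted p = 0.00439) and without proliferating IP replicate 2 (0.44, adjusted p = 0.0451). Mir33, which lies in the sterol regulator gene Srebf2, was at -0.20 in the input (edgeR adjusted p = 0.654, and 0.035 without resting input replicate 1) and fell by 1.14 in the IP (edgeR adjusted p = 0.00496). Mir125b-1, Mir125b-2 and Mir504 had 27, 20 and 11 counts in all.

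**Figure D5:**
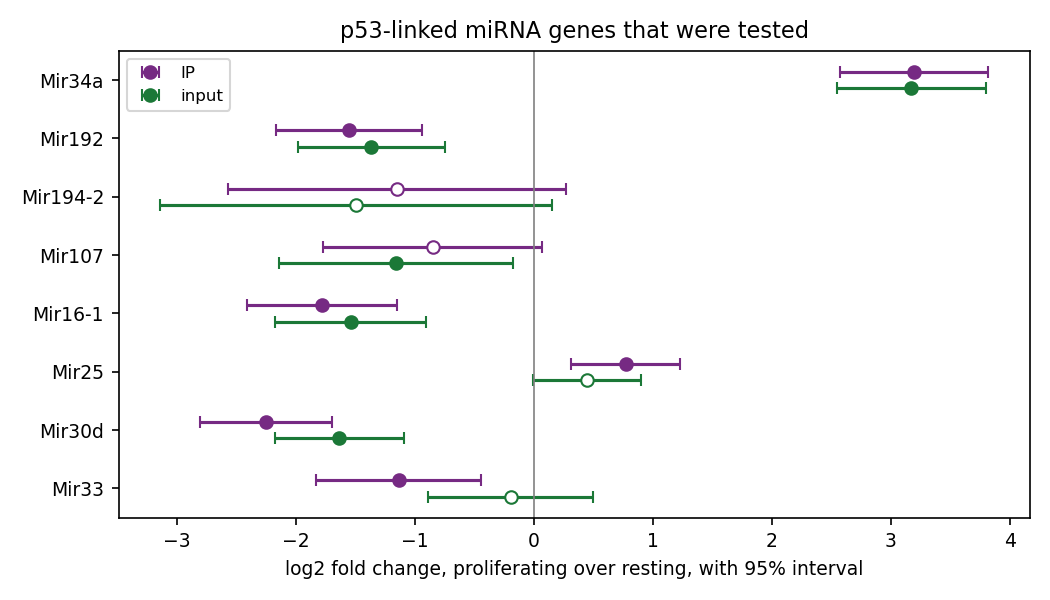
Log2 fold change of proliferating over resting cells, with 95% intervals, for the 8 tested genes of the p53-linked lists, in the IP (purple, upper of each pair) and the input (green); filled points have an edgeR adjusted p under 0.05. Mir34a lies furthest to the right at 3.20 in the IP and 3.17 in the input, Mir25 lies at 0.77 and 0.44, and the other 6 genes lie left of 0, where library totals in place of TMM moved the input value of Mir33 to 0.16.

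Between IP and input, none of the 4 tested p53 transcription targets passed in either state in the edgeR fit of all 8 libraries with TMM. Of all tested features 26.9% were called there in proliferating cells and 28.8% in resting cells. In resting cells Mir192 had an unadjusted edgeR p of 0.0358 and passed with upper-quartile factors (0.81, edgeR adjusted p = 0.0389). Mir34a passed in proliferating cells with library totals (-1.05, edgeR adjusted p = 0.00831). Mir25 was higher in the IP by 1.31 in proliferating cells (edgeR adjusted p = 2.23e-05) and by 0.98 in resting cells (edgeR adjusted p = 7.04e-04). In the proliferating IP Mir30d was at 0.472 of its input level (edgeR adjusted p = 0.00179) and Mir33 at 0.450 (edgeR adjusted p = 0.0107).

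The features whose log2 CPM followed that of Mir34a most closely over the 8 libraries, among 212 named features, were Mir183 (Pearson r 0.994), Mir298 (0.993), Mir18 (0.992), Mir18b (0.985) and Mir182 (0.983). The 8 points come from only 2 cell states and share their scaling, so r mainly carries the difference between states. In the input the log2 fold changes of these features in proliferating over resting cells were 3.59 for Mir183, 2.57 for Mir298, 2.63 for Mir18, 3.11 for Mir18b and 3.11 for Mir182. In the IP they were 3.92 for Mir183, 3.03 for Mir298, 2.86 for Mir18, 3.08 for Mir18b and 3.90 for Mir182. All 5 passed in both (edgeR adjusted p at most 5.34e-06). They were picked by r over these same libraries, so their passing followed largely from the choice and is no separate evidence. Of all tested features, 26% were called higher in the input and 28.3% in the IP. Mir183 and Mir182 come from 1 cluster, and Mir18 and Mir18b are close relatives in sequence.

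Mir192 had less close matches. The highest r were those of Mir378d (0.949), Mir6957 (0.949), Mir139 (0.920), Mir1839 (0.909) and Mir1941 (0.898), with Mir194-2 in place 11 (0.882). Mir378d, Mir6957 and Mir1941 had a mean of at most 36.8 CPM in every group, so their match rests on few counts. Mir139 was at a mean of 35.2 CPM in the proliferating IP and 50.3 CPM in the proliferating input, against 485 CPM in the resting IP and 372 CPM in the resting input. Mir1839 was at 112 CPM in the proliferating IP and 111 CPM in the proliferating input, against 532 CPM in the resting IP and 331 CPM in the resting input. Between Mir34a and Mir192 r was -0.937.

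Summed levels of markers of other cell types ran alongside the members, and their part in these results was not tested. The 8 epithelial markers (the miR-200 family with Mir375, Mir203 and Mir205) had lower sums in proliferating cells, as Mir192 had. Their summed level was 595 to 774 CPM in the proliferating IPs and 669 to 715 CPM in the proliferating inputs, against 2827 to 3083 CPM in the resting IPs and 2052 to 2215 CPM in the resting inputs. In the input 3 of the 6 tested members were called lower in proliferating cells and 3 did not pass, among them Mir200c with means of 216 CPM in the proliferating input and 215 CPM in the resting input. In the IP all 6 were called lower. Of all tested features 23.3% were called lower in the input and 23.7% in the IP. Mir200a, Mir200b and Mir429 lie close together on chromosome 4, and Mir200c and Mir141 on chromosome 6, so the 6 are not independent. The sum of the resting input was mostly that of Mir203 and Mir141, with means of 966 and 657 CPM there. No count of Mir375 was found outside resting IP replicate 1. The myeloid Mir223 was at 811 to 1237 CPM in the proliferating IPs and 1724 to 2536 CPM in the proliferating inputs, against 18222 to 31035 CPM in the resting IPs and 11582 to 27113 CPM in the resting inputs. The erythroid list, of which Mir144 and Mir486 could be assigned and Mir486, which overlaps the feature of Mir3107, was at 0 in all IPs, was at 2.54 to 4.39 CPM in the proliferating IPs and 14.1 to 21.0 CPM in the proliferating inputs, against 85.8 to 248 CPM in the resting IPs and 115 to 246 CPM in the resting inputs.

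The endothelial Mir126a was higher in proliferating cells, as Mir34a was. It stood at 1037 to 2046 CPM in the proliferating IPs and 488 to 614 CPM in the proliferating inputs, against 76.9 to 155 CPM in the resting IPs and 174 to 241 CPM in the resting inputs, but it overlaps the feature of Mir126b. The hepatocyte Mir122 was at 5.94 to 14.6 CPM in the proliferating IPs and 45.6 to 62.1 CPM in the proliferating inputs. In resting cells it was at 35.1 to 37.5 CPM in the IPs and 8.40 to 9.82 CPM in the inputs. The 6 stromal markers, with Mir199a-2 and Mir214 at 0 throughout, summed to 17.6 to 26.3 CPM in the proliferating IPs and 3.51 to 14.1 CPM in the proliferating inputs, against 62.9 to 101 CPM in the resting IPs and 12.3 to 30.8 CPM in the resting inputs. All 5 muscle markers were listed at 0 in every library, and the 3 neural markers that could be assigned reached at most 2.82 CPM. These low values do not show absence, since Mir1a-2 and Mir9-1 overlap other features and the copies of Mir1a, Mir133a and Mir9 make the same mature forms.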

How the data were processed

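The submitters' processing notes name STAR 2.7.9a, SAMtools 1.15 and mm10. Per the file headers, the deposited counts per miRNA gene come from deduplicated alignments, and their values are whole numbers without normalization. Which counter was run, with what strand setting and what rule for multi-mapping reads, is not given in the sources used here. Of 2202 features, 1179 were named by exact coordinates in RefSeq (GRCm38.p6), and sequences are RefSeq's.

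Features were kept by filterByExpr (minimum count 10), which left 219. All 8 libraries entered 1 quasi-likelihood fit with a term per group (edgeR 4.0.16, R 4.3.3), with 4 residual and 36.6 prior degrees of freedom. CPM used TMM factors, from 0.797 to 1.34. Each of 5 contrasts had a 2-sided test, adjusted by Benjamini-Hochberg over the 219 features, with a threshold of 0.05. SE is the absolute log2 fold change over the square root of F, and 95% intervals use the fit's total degrees of freedom. Log2 CPM for r used a prior count of 2. No replicate pair looked like 1 library deposited again: chi-square over degrees of freedom was at least 8.56. The fit was run on simulated data with known changes, drawn from the same kind of model with the spread fitted here. This checks the calculation, and cannot show that the model suits these libraries. Alternatives were upper-quartile factors, library totals, DESeq2 1.42.0, no filter, a replicate block, fits of 2 groups, and leaving out each library.

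The members and lists were chosen with earlier results of these data known. Named are the members, the p53-linked and seed lists, and the 5 features closest to each member.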

Additional observations from a re-analysis of the deposited data

How the results depend on the processing

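Mir34a and Mir192 kept direction and call in both comparisons of cell states under all alternatives. Without single libraries Mir34a ranged from 2.95 to 3.46 in the input and 2.73 to 3.45 in the IP, and Mir192 from -1.70 to -0.96 and from -1.997 to -1.44, with edgeR adjusted p at most 0.0409. Scaling moved the median log2 fold change of all features by up to -0.67 (upper-quartile factors, proliferating minus resting in the IP), where Mir34a was 2.51 and Mir192 -2.22. IP against input in proliferating cells gave Mir34a -1.05 (adjusted p = 0.00831) and Mir192 -0.14 with library totals. In resting cells Mir192 passed with upper-quartile factors (0.81, adjusted p = 0.0389), DESeq2 (0.71, adjusted p = 0.0482) and the fit of 2 groups (0.90, adjusted p = 0.0159). The enrichment difference of Mir34a turned to -0.30 with upper-quartile factors, -0.35 with library totals, -0.094 with DESeq2 and -0.21 with no filter, and the number of features called was 22 with upper-quartile factors against 38. A fit of 2 groups cannot give this difference. The input value of Mir33 turned to 0.16 with library totals. Without single libraries the ranges were -0.94 to -0.14 (Mir34a) and -0.15 to 0.70 (Mir192) for IP against input in proliferating cells, with 30 to 63 calls. They were -0.76 to -0.21 (Mir34a) and 0.45 to 0.90 (Mir192) in resting cells, -0.71 to 0.49 (Mir34a) and -1.03 to 0.13 (Mir192) for the enrichment difference, with 11 to 46 calls, and -0.47 to 0.035 for Mir33 in the input. A group left with 1 library was assumed to vary like the others, and these fits tested 225 to 253 features, so their numbers of calls have different bases. For 13 other named features (without Mir378d, Mir6957 and Mir1941), a check added after seeing the data, 395 of 420 values kept direction and call, 13 lost the call, 10 gained it and 2 reversed. All losses were of Mir107 in the input and Mir25 in the IP.

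The titles number the libraries 1 and 2 in every group, but the numbers share no stated animal or day. Deviations of same-numbered libraries correlated with r from -0.12 to 0.18 over 6 pairs of groups. With a replicate block the difference between states was 3.18 (input) and 3.19 (IP) for Mir34a and -1.38 and -1.55 for Mir192, and no call of either gene changed, while Mir107 no longer passed in the input (-1.15, edgeR adjusted p = 0.0637). The cause of these changes was not tested. Depth limits the genes under about 10 counts, such as Mir34b and Mir215 in proliferating cells.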
